A study of Mus musculus with 6 samples.

Results

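Mbp, Mobp, Mog, Mag, Cnp, Opalin, Myrf, and St18 are genes of the myelin sheath and of the maturation of oligodendrocytes, the glial cells that wrap axons in the brain. They were taken by symbol, 8 of the 32285 genes counted in snRNA-Seq of the prelimbic cortex (PL). All libraries came from C57BL/6 males whose mothers had a running wheel (Run) or a standard cage (Sed) until weaning. After weaning, the males lived in groups (GH) or alone in social isolation (SI). Dataset 1 has a Run GH and a Sed GH library from males selected by rank after the tube test of social dominance. The paper describes its Run and Sed males as top and bottom in rank within their groups. Read in that order, mother and rank cannot be told apart in dataset 1. Dataset 2 has 1 library of each combination of mother and housing, from males without behavioral testing. Each library is a pool of PL tissue from 3 males of different mothers, so the spread between single mice is not measured, and each condition has 1 library per dataset. The labels give an age of P21, the day when housing began, whereas the methods of the study give about 4 months.

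Oligodendrocytes arise from dividing precursors that express Pdgfra and pass through a short newly formed stage, known by Enpp6 and Bcas1, before they build myelin. Myrf is the transcription factor that switches on many myelin genes, and St18 is a zinc finger transcription factor of the maturing lineage. Mbp holds the membranes of compact myelin together, and its mRNA is known to be carried out of the cell body into the processes that form the sheath. Mobp is another protein of compact myelin, Cnp lies in the non-compact parts, Mag faces the axon, Mog lies on the outermost surface and appears late, and Opalin is a membrane protein of mature oligodendrocytes.

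The sequences before the transcription start of 4 members are shown because these genes come on at different stages in the data described next, and because a Myrf motif is in 3 of them. The windows are from RefSeq on build GRCm38.p6, written 5′ to 3′ in the direction of the gene, and cover 250 bases, or 215 bases for Cnp. They lie at chr17:37023399-37023648 (− strand) for Mog, at chr7:30914923-30915172 (− strand) for Mag, at chr11:100574689-100574903 (+ strand) for Cnp, and at chr19:41077114-41077363 (− strand) for Opalin. Capitals mark the letters CTGGCAC or CTGGTAC on either strand.
Mog promoter: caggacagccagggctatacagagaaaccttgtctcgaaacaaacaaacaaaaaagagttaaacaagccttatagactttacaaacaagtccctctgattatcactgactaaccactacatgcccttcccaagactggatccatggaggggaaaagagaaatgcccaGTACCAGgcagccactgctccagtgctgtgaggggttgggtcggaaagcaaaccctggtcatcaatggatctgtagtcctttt
Mag promoter: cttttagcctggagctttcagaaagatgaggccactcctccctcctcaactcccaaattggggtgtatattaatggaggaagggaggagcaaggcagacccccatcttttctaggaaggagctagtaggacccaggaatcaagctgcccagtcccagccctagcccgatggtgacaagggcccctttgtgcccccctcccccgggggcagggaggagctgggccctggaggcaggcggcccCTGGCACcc
Cnp promoter: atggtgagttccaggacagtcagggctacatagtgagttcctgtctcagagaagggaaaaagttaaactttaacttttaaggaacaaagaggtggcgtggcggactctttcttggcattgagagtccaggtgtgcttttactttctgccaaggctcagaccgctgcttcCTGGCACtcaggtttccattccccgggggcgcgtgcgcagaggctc
Opalin promoter: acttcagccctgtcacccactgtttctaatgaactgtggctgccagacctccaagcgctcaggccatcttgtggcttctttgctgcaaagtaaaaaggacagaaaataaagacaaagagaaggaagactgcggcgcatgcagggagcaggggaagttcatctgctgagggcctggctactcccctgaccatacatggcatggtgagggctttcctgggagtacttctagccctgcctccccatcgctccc
The motif lies 83 bases before the RefSeq start of Mog, where it is on the opposite strand, 9 bases before that of Mag, and 81 bases before that of Cnp. The printed Cnp window stops short of the RefSeq start because the GENCODE gene begins before it. No match was in the windows of Opalin and Mobp, and windows of the other 3 members were not used. Of 32851 promoter windows of all genes, 5.93% held the motif within 250 bases and 5.12% within 215 bases. A match is a description of the letters and not a measured site.

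Nuclei were sorted into classes by clustering in which the 8 genes took no part, so that their levels did not decide where a nucleus was placed. Of 42595 nuclei kept, 364 were oligodendrocytes (25 to 100 per library), 83 were nuclei led by Bcas1 and Enpp6 (3 to 25), called Enpp6-led here, and 322 were precursors led by Pdgfra (14 to 102). In oligodendrocyte nuclei, 11 to 13 of the 13 oligodendrocyte markers were detected per library, at a summed 2215 to 5149 UMIs of the gene per 1000000 UMIs (CPM), against 152 to 296 CPM in Pdgfra-led precursors. In the Enpp6-led nuclei, precursor markers were at 7374 to 14592 CPM and oligodendrocyte markers at 1001 to 2851 CPM. Of the former, Tnr alone was at 6337 to 12116 CPM, whereas Pdgfra, the defining precursor gene, was at 0 in 4 libraries and at 17.6 and 61.8 CPM in Run GH of dataset 1 and Run SI, against 408 to 1203 CPM in Pdgfra-led precursors. No precursor marker was among their 10 leading genes, so they are called by Enpp6, one of their leading genes in both datasets. They also held 2207 to 4742 CPM of the inhibitory neuron markers and Pdgfra-led precursors 3457 to 6923 CPM, against 976 to 2048 CPM in oligodendrocyte nuclei. Of the 8 inhibitory markers, 2 to 5 were detected per library in Enpp6-led nuclei and 3 to 8 in Pdgfra-led precursors. Astrocyte markers were at 3518 to 6520 CPM in Pdgfra-led precursors, 0 to 983 CPM in Enpp6-led nuclei, and 300 to 1043 CPM in oligodendrocyte nuclei. Oligodendrocyte nuclei also held markers of pyramidal neurons, at 1711 to 3075 CPM over 9 genes, against 4168 to 4668 CPM in pyramidal nuclei and 609 to 1323 CPM in astrocytes. In dataset 2, clusters of 13, 61, 12, and 11 nuclei raised markers of the oligodendrocyte lineage but more markers of a second class than of the best-scoring one, and stayed without a name.

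Depth differed between libraries. Totals ran from 19134955 to 188952936 UMIs, and the median nucleus held 6250 UMIs in the deepest library (Sed GH, dataset 1) and 1637 in the shallowest (Sed GH, dataset 2). Any pair of libraries shared 5 to 22 barcodes among the nuclei kept. Intervals given with ratios are exact 95% intervals and cover counting error only.

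Mbp was already abundant in the Enpp6-led nuclei and was not higher in oligodendrocytes. In oligodendrocyte nuclei it was at 1525, 2004, and 4213 CPM (lowest, median, and highest of 6 libraries), and in Enpp6-led nuclei at 1809, 4721, and 6784 CPM. The ratio of oligodendrocytes to Enpp6-led nuclei was 0.520 (0.483 to 0.560) over summed UMIs, and oligodendrocytes were the higher class in 1 of 6 libraries. In Pdgfra-led precursors Mbp was at 0 to 150 CPM, and its highest library lay below the lowest of the Enpp6-led nuclei.

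Mobp and Mog differed in the other direction, with higher levels in oligodendrocytes. Mobp was at 250, 677, and 1707 CPM in oligodendrocyte nuclei and at 0, 156, and 442 CPM in Enpp6-led nuclei. Its ratio was 3.78 (2.75 to 5.33), and oligodendrocytes were higher in 6 of 6 libraries although the ranges overlapped. Mog, the late gene of the outer surface, was at 219, 391, and 800 CPM in oligodendrocyte nuclei and at 17.6, 95.5, and 296 CPM in Enpp6-led nuclei, from 493 and 15 UMIs. Its ratio was 6.04 (3.63 to 10.9), and the order was the opposite in Sed GH of dataset 2, where the Enpp6-led group had 3 nuclei and 1 Mog UMI.

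Opalin was the member with the largest ratio between these stages. Its 202 UMIs in oligodendrocyte nuclei gave 83.5, 156, and 302 CPM, whereas 1 UMI was found in all 83 Enpp6-led nuclei, and the ranges did not overlap. The ratio was 37.1, with an interval from 6.59 to 1473 because of the single UMI. Pdgfra-led precursors held 2 UMIs of Opalin. At this depth 247 of 364 oligodendrocyte nuclei had no Opalin UMI, so a nucleus without one need not lack the transcript.

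Over UMIs summed across both datasets, Mag, Cnp, and Myrf showed no detectable step between the Enpp6-led nuclei and the oligodendrocytes. Mag, the protein facing the axon, was at 267, 356, and 683 CPM in oligodendrocyte nuclei and at 176, 447, and 593 CPM in Enpp6-led nuclei, with a ratio of 0.968 (0.771 to 1.23). In dataset 1 Mag was at 385 and 683 CPM in oligodendrocyte nuclei and at 176 and 470 CPM in Enpp6-led nuclei. In dataset 2 it was at 267 to 585 and at 393 to 593 CPM. Oligodendrocytes were the higher class for Mag in 3 of 6 libraries, among them those of dataset 1. Myrf was at 16.7, 64.4, and 215 CPM and at 0, 73.8, and 188 CPM, with a ratio of 0.691 (0.423 to 1.18). Cnp rested on 59 and 18 UMIs, with a ratio of 0.602 (0.350 to 1.08). Each of these 3 intervals includes 1, which leaves room for differences of that size in either direction.

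St18 was among the most abundant of the 8 in both stages. It was at 857, 1519, and 2808 CPM in oligodendrocyte nuclei and at 1493, 2402, and 3853 CPM in Enpp6-led nuclei, and the ratio was 0.694 (0.628 to 0.769). The order differed between datasets. In dataset 1 St18 was at 1841 and 2633 CPM in oligodendrocyte nuclei and at 1493 and 1691 CPM in Enpp6-led nuclei. In dataset 2 it was at 857 to 2808 and at 2269 to 3853 CPM. Oligodendrocytes were the higher class in 2 of 6 libraries, those of dataset 1. In nuclei with few pyramidal markers the ratio was 1.47, as described below. From Pdgfra-led precursors to Enpp6-led nuclei the ratio of St18 was 110 (67.9 to 190). It was 86.5 (32.6 to 324) for Mag, 46.3 (36.8 to 58.9) for Mbp, and 5.38 (2.64 to 11.2) for Myrf. Mog also rose at this step, by 57.7 (8.87 to 2427) from 1 to 15 UMIs, and was higher in 6 of 6 libraries. Mobp was at 11.8 (6.20 to 24.1), Cnp at 8.65 (3.58 to 23.0), and Opalin at 1.92 (0.0326 to 36.9). Myrf was at 0 to 31.9 CPM in Pdgfra-led precursors from 15 UMIs, and its ratio of oligodendrocytes to these precursors, 3.72 (2.12 to 6.96), was the smallest of the 8, next to 5.21 (2.48 to 12.6) for Cnp. Set against the background droplets described below, Myrf in Pdgfra-led precursors had a median ratio of 5.07 over libraries (0 to 14.3). The other medians ran from 0 for Mog and Opalin to 0.456 for Mbp, with single libraries up to 4.03 for Cnp. The classes were built from other genes of the same nuclei, so the ratios between stages describe the classes and are not tests.

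**Figure D1:**
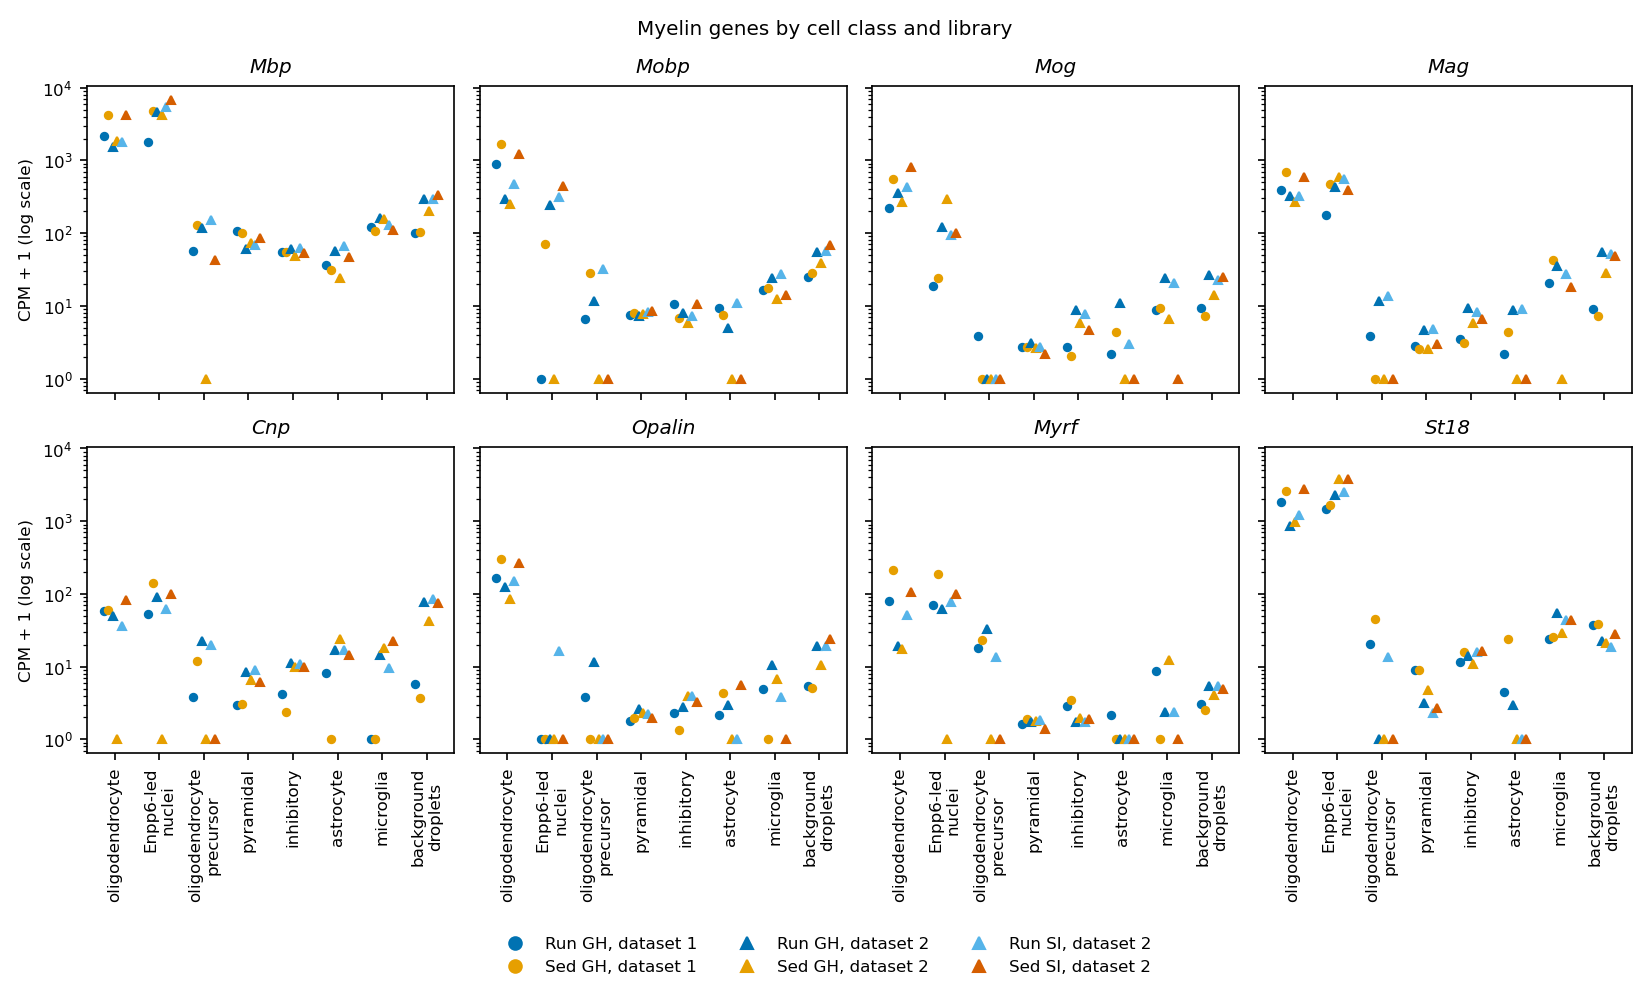
CPM + 1 on a log axis of each gene in 7 cell classes and in background droplets, with 1 point per library; circles are dataset 1 and triangles dataset 2. The ranges in Enpp6-led nuclei and in oligodendrocytes overlap for each gene except Opalin, which has 1 UMI in the former and is at 83.5 to 302 CPM in the latter.

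The pyramidal markers in oligodendrocyte nuclei were lowest in the libraries where the members were highest. Both are shares of the same UMIs, so more of one leaves less for the other. Sed GH of dataset 1 and Sed SI had the lowest summed pyramidal markers, 1863 and 1711 CPM, and the highest summed levels of the 8 members, 10357 and 10046 CPM. The other 4 libraries had 2812 to 3075 CPM of pyramidal markers and 3540 to 5771 CPM of the members. When oligodendrocyte nuclei were limited to those with at most 1 UMI of pyramidal markers per 1000, 89 of 364 remained (5 to 31 per library), and the members summed to 6405 CPM in Run GH of dataset 1 and to 12761 to 16419 CPM in the other 5 libraries. The nuclei left out summed to 2350 to 7175 CPM.

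With this limit on all 3 classes, 31 Enpp6-led nuclei and 95 Pdgfra-led precursors remained, and the order of the stages held for the late genes. The ratio of oligodendrocytes to Enpp6-led nuclei was then 36.3 (6.36 to 1449) for Opalin, 11.8 (5.65 to 29.8) for Mog, and 4.15 (2.93 to 6.05) for Mobp. Mbp came to 0.905 (0.813 to 1.01), so that its higher level in Enpp6-led nuclei was no longer outside counting error. St18 turned around, to 1.47 (1.26 to 1.73). Its order between the stages therefore depended on which nuclei were counted and, with all nuclei, on the dataset. Mag, Cnp, and Myrf were at 1.22 (0.895 to 1.68), 1.05 (0.472 to 2.57), and 1.18 (0.563 to 2.71).

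**Figure D2:**
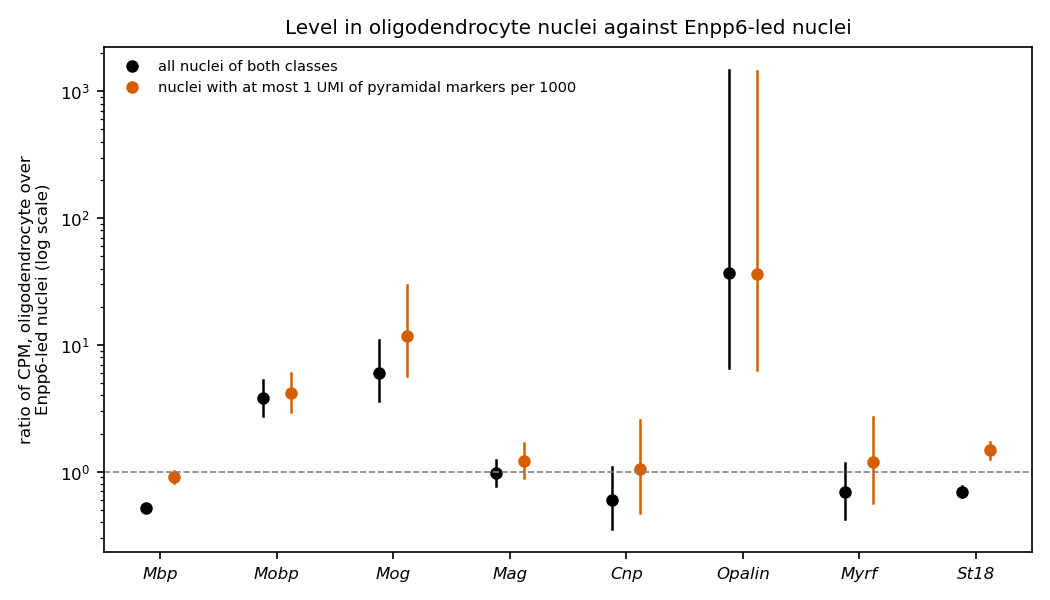
Ratio of CPM in oligodendrocyte nuclei to CPM in Enpp6-led nuclei on a log axis, over UMIs summed across 6 libraries, with exact 95% intervals for counting error. Mobp, Mog, and Opalin lie above 1 for all nuclei and for the nuclei with few pyramidal markers, whereas St18 moves from 0.694 to 1.47.

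**Figure D3:**
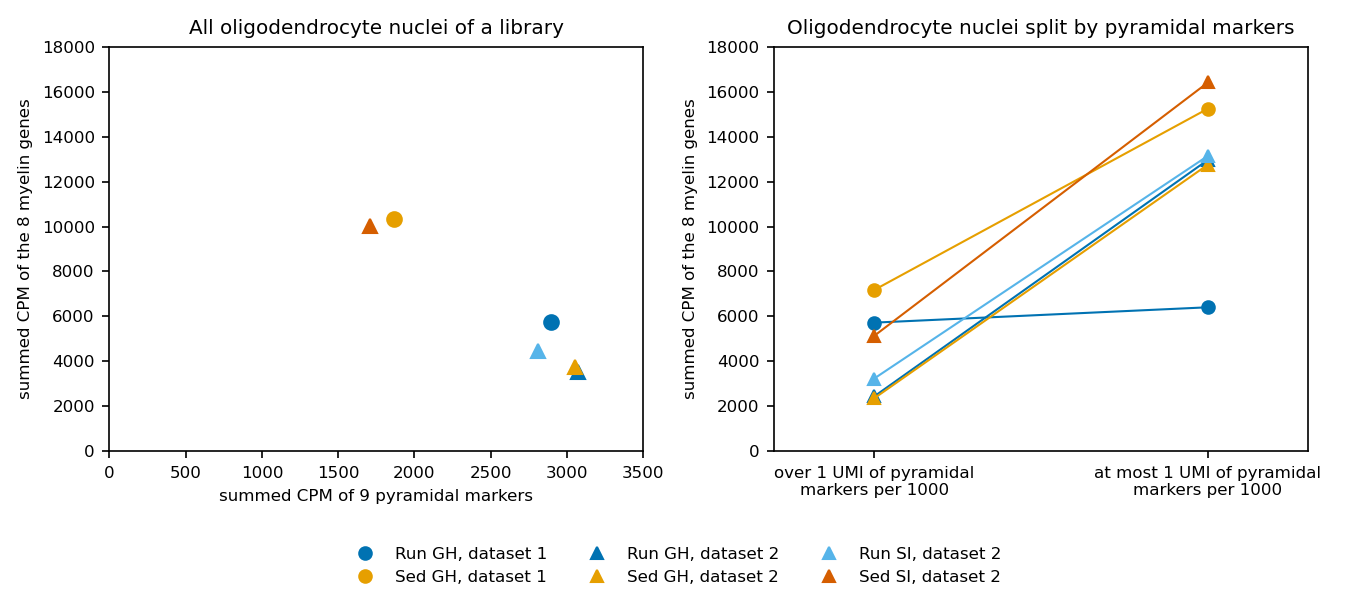
Left, summed CPM of the 8 members against summed CPM of 9 pyramidal markers in all oligodendrocyte nuclei of a library; right, summed CPM of the members in nuclei above and within the limit of 1 pyramidal UMI per 1000, with a line per library. The nuclei within the limit are higher in 6 of 6 libraries, and least so in Run GH of dataset 1, where 5 nuclei were within it.

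Within oligodendrocyte nuclei, pooled over libraries in which 11.8 to 41.8% of nuclei had Opalin, each of the other 7 members was found at a higher share where Opalin was found. Mobp had a UMI in 84.6% of 117 nuclei with Opalin and in 53.4% of 247 nuclei without it. Mag was in 80.3% and 52.2%, Mog in 75.2% and 55.5%, and St18 in 98.3% and 76.1%. The gaps were small for Mbp, at 99.1% and 92.3%, for Cnp, at 18.8% and 12.1%, and for Myrf, at 19.7% and 16.6%, and no test was made over nuclei. Nuclei with Opalin were not deeper, with a median of 2713 against 2973 UMIs, and their pyramidal markers were at 2080 against 2990 CPM. The part of these markers in the difference was not tested.

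Outside the lineage, levels were low but not the same in every class. In pyramidal nuclei Mbp was at 58.6, 78.8, and 105 CPM and in inhibitory nuclei at 47.6 to 61.1 CPM, with a ratio of 1.46 (1.37 to 1.55) and the pyramidal value higher in 5 of 6 libraries. St18 differed in the other direction. It was at 1.31 to 8.09 CPM in pyramidal and 9.71 to 15.7 CPM in inhibitory nuclei, ranges that did not overlap, with a ratio of 0.330 (0.285 to 0.384). Over summed UMIs, Mog (0.403), Mag (0.510), Myrf (0.550), Opalin (0.633), and Cnp (0.754) were also lower in pyramidal than in inhibitory nuclei, with intervals below 1. In dataset 1, however, the mean of Mog was 1.70 CPM in pyramidal and 1.37 CPM in inhibitory nuclei, and that of Opalin 0.864 and 0.836 CPM. The means of Mag, Myrf, and Cnp were lower in pyramidal nuclei there too. The members thus did not keep 1 ratio between the 2 neuron classes. Few neurons had UMIs of 4 or more members. Per library, these made up 0.424 to 1.28% in the inhibitory class but 0 to 0.259% in the pyramidal class. In dataset 2, the 67 St18 UMIs of an inhibitory cluster of 1469 nuclei lay in 30 of them. In dataset 1, the 24 St18 UMIs of an inhibitory cluster of 493 nuclei lay in 23. The part of nuclei with many members, or of doublets, in these ratios was not tested. Against the background droplets described next, pyramidal Mbp was at 95.2 and 106% of background in dataset 1 and at 19.8 to 36.4% in dataset 2, and inhibitory St18 at 29.6 to 86.0%. Pyramidal clusters differed among themselves. Mbp ran from 52.9 to 187 CPM over 8 clusters of dataset 1, of which those at 128, 159, and 187 CPM lay above background (99.4 and 103 CPM). The cluster at 128 CPM, of 460 nuclei, had mostly mitochondrial genes and no pyramidal marker among its 10 leading genes. Mbp ran from 19.5 to 112 CPM over 9 clusters of dataset 2, all below background (200 to 334 CPM). The pyramidal classes of the datasets are not made of like clusters, since a cluster led by Otof had no name in dataset 1 (2847 nuclei, Mbp at 64.9 CPM) and was pyramidal in dataset 2 (3966 nuclei, 46.3 CPM). The source of the UMIs of Mbp and of the other members in neurons was not tested.

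In microglia, the immune cells of the brain, Mbp, Mobp, and St18 were higher than in astrocytes in 6 of 6 libraries. Mbp was at 107 to 158 CPM in microglia and 23.0 to 65.5 CPM in astrocytes, ranges that did not overlap. Mobp was at 11.4 to 26.8 CPM in microglia and at 0 to 9.92 CPM in astrocytes, and its ranges were also apart. Mog and Mag were higher in 5 of 6 libraries, the intervals for Myrf (0.806 to 306) and Opalin (0.902 to 13.1) included a ratio of 1, and Cnp, with 0.984 (0.544 to 1.77), was higher in microglia in 1 library. Against background, microglial Mbp was at 32.5 to 121% and Mobp at 19.1 to 65.2%, whereas St18 was at 65.2 and 65.5% in dataset 1 and at 139 to 254% in dataset 2. Mag had the opposite pattern, at 240 and 657% in dataset 1, from 10 UMIs, and at 0 to 62.8% in dataset 2. Myrf ran from 0 to 375%, from 6 UMIs. Microglial nuclei held 2682 to 3320 CPM of pyramidal markers and astrocytes 609 to 1323 CPM, so more than the myelin genes differed between these classes, and the part of other nuclei in these droplets was not tested.

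Background droplets, those with fewer UMIs than a nucleus needed here, contained all 8 genes, and 7 of them took a larger share there than in nuclei. They held a median of 960 and 1093 UMIs in dataset 1 and of 81 to 300 UMIs in dataset 2, and whether small or damaged nuclei are among them was not tested. The question is which transcripts are richer outside the nuclei kept, and each library served as its own control. Of 19447 genes tested, 30.5% were higher in background and 29% lower (59.5% in all), so that a change is common in this comparison and the count of 7 of 8 is read against that share. The median log2 difference was 1.71 over the members and -0.047 over all genes tested.

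Over both datasets, Cnp and Opalin differed most. In dataset 1 alone the log2 difference was 1.35 for Opalin but 0.51 for Cnp, below those of most members. Cnp was at 2.75, 58.1, and 83.6 CPM in background and at 2.45 to 8.85 CPM over all nuclei, a log2 difference of 2.26 ± 0.49 (SE; edgeR adjusted p = 0.00642). Opalin was at 4.09, 13.8, and 22.9 CPM in background and 1.63 to 2.93 CPM in nuclei, with a log2 difference of 2.15 ± 0.25 (edgeR adjusted p = 0.00124). For both genes, background was higher in 6 of 6 libraries. Mag (2.02 ± 0.33), Mobp (1.85 ± 0.20), and Mog (1.57 ± 0.14) were higher with edgeR adjusted p = 0.0026, 0.00114, and 0.00114.

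Mbp and Myrf were also higher, but their calls depended on which libraries were included. Mbp was at 99.4, 245, and 334 CPM in background and at 76.8 to 113 CPM in nuclei, a log2 difference of 1.00 ± 0.30 (edgeR adjusted p = 0.0208). Without any 1 of the 4 libraries of dataset 2 (Run GH, Sed GH, Sed SI, Run SI), its adjusted p was 0.067, 0.0574, 0.0641, and 0.0692. Myrf had a log2 difference of 1.11 ± 0.31 (edgeR adjusted p = 0.0172), with adjusted p = 0.054, 0.0579, and 0.0519 without Run GH, Run SI, or Sed SI of dataset 2. St18 was at 17.4, 24.2, and 37.8 CPM in background and at 11.6 to 26.1 CPM in nuclei and was not called, with a log2 difference of 0.46 ± 0.19 (edgeR adjusted p = 0.0668). The St18 value depended on the droplets and nuclei used. It was 0.034 (edgeR adjusted p = 0.912) with background of 1 to 99 UMIs and 1.37 (0.000818) with background of 30 to 2000 UMIs. Against nuclei other than oligodendrocytes it was 1.52 (edgeR adjusted p = 0.00105), against nuclei of at least 1000 genes 0.72 (0.0148), and without Run SI 0.60 (0.0455). With background of 1 to 99 UMIs, Myrf was at 0.67 (edgeR adjusted p = 0.0939).

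Set against the oligodendrocyte nuclei themselves, the background differed by gene. In dataset 2, St18 had the highest ratio of oligodendrocyte nuclei to background in each library, 40.3 to 103, followed by 13.7 to 33.8 for Mog. The ratios there were 4.23 to 26.5 for Myrf, 5.32 to 18.0 for Mobp, 6.85 to 11.6 for Opalin, 6.01 to 12.5 for Mag, 5.15 to 12.5 for Mbp, and 0 to 1.09 for Cnp. St18 was also the highest in Run GH of dataset 1 (51.3, next to 47.5 for Mag), but in Sed GH of dataset 1 the ratios of Myrf (138), Mag (109), Mog (87.1), and Opalin (73.9) lay above that of St18 (69.6). Both ratios of dataset 1 lay above all those of dataset 2 for Mbp (21.5 and 40.8), Mobp (37.0 and 62.4), Mag (47.5 and 109), Cnp (12.2 and 21.3), Opalin (37.1 and 73.9), and Myrf (37.7 and 138), whereas the datasets overlapped for Mog and St18. St18 is the longest of the 8 genes, 373.7 kb in GENCODE M21 on mm10, of which 1.73% is exon, whereas the other members are 12.7 to 110.5 kb long with 7.66 to 26.4% exon. The methods of the study state that introns were included, so a nuclear level can include unspliced RNA. The part of gene length and of unspliced RNA in these ratios was not tested.

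The other genes of the pathway, taken from lists of textbook genes, were described in the same contrast, in which 30.5% of all genes were higher and 29% lower. Of 18 further structural and junction genes of myelin, 16 were higher and 1 was lower, with log2 differences of 3.09 for Mal, 2.75 for the gap junction gene Gjb1, 2.66 for Tmem125, and 2.54 for the tight junction gene Cldn11. The lower one was Nfasc (-0.89), a cell adhesion gene that neurons express as well. Of 12 genes of myelin lipid synthesis, 9 were higher and none lower, among them Hmgcs1 (1.79) and Idi1 (1.73) of the cholesterol pathway, Aspa (1.39), and Ugt8a (1.15). Of 12 transcription factor genes of the lineage, 5 were higher, from Sox10 (0.66) to Olig1 (3.14), and 4 were lower, among them Zfp536 (-1.14) and Zeb2 (-0.70). Of 16 precursor and newly formed oligodendrocyte genes, 10 were higher, including C1ql1 (2.47), Pdgfra (1.14), and Enpp6 (1.14), and 4 were lower, Megf11 (-1.57), Tnr (-1.15), Lhfpl3 (-1.13), and Sox5 (-1.12). The median log2 difference was 1.98 over the structural genes, 0.92 over the lipid genes, 0.54 over the transcription factors, and 0.82 over the precursor genes.

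The datasets differed in this contrast. In dataset 1 alone, 6 of 8 members were higher in background, where 38.5% of genes were called and 20.1% were higher, but Mbp was not, with 99.4 and 103 CPM in background against 99.9 and 103 CPM in nuclei. Droplets of 1 to 99 UMIs held 122 and 132 CPM of Mbp in dataset 1. Myrf was the other member not called between background and nuclei of dataset 1 (log2 difference 0.19, edgeR adjusted p = 0.546), and St18 was called higher in background (log2 difference 0.98, edgeR adjusted p = 4.15e-05). In dataset 2 Mbp was at 200 to 334 CPM in background and 76.8 to 113 CPM in nuclei. Cnp was at 2.75 to 4.76 CPM in background of dataset 1 and at 41.7 to 83.6 CPM in dataset 2. Mitochondrial UMIs were also higher in background of dataset 2, at 2.40 to 4.45%, than in dataset 1, at 0.0777 to 0.197%, and their part in the difference was not tested. Tested as a difference between datasets, with 62.3% of all genes called by edgeR, the contrast was larger in dataset 2 for 7 members and smaller for St18.

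Whole libraries, in which all barcodes are summed, also differed between datasets. Cnp was at 2.87 and 4.09 CPM in dataset 1 and at 19.4 to 36.1 CPM in dataset 2, a log2 difference of 2.48 ± 0.16 (edgeR adjusted p = 0.00016). Mag (1.27, adjusted p = 0.00221) and Mog (0.75, adjusted p = 0.0345) were also higher in dataset 2 and St18 (-0.68, adjusted p = 0.0175) was lower by the same edgeR test, in which 58.4% of 20531 genes were called, 28.3% higher and 30% lower. The St18 difference is a fitted one, given mother and housing. Its CPM overlapped, at 32.3 and 34.1 in dataset 1 and at 22.2 to 39.1 in dataset 2. Dataset and earlier behavioral testing cannot be told apart. In such sums, fewer cells of a type and less RNA per cell cannot be told apart either.

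In oligodendrocyte nuclei 3 members were lower in dataset 2 and none higher, where edgeR called 5.52% of 4132 genes, 3.46% higher and 2.06% lower. Mobp was at 885 and 1707 CPM in dataset 1 and at 250 to 1230 CPM in dataset 2, with a fitted log2 difference, given mother and housing, of -1.95 ± 0.38 (edgeR adjusted p = 0.00698). Myrf (-2.45 ± 0.53, edgeR adjusted p = 0.0146) and St18 (-1.18 ± 0.33, edgeR adjusted p = 0.0439) were lower as well. St18 was thus lower in dataset 2 by the fitted values both in these nuclei and in whole libraries, although its CPM overlapped between datasets in each. Cnp, with -0.49 ± 0.66 in oligodendrocyte nuclei (edgeR adjusted p = 0.739), was called in whole libraries only. The 2 kinds of sum were not compared by a test. The pyramidal markers in these nuclei were at 2892 and 1863 CPM in the group-housed libraries of dataset 1 and at 3075 and 3055 CPM in those of dataset 2, and their part in the difference was not tested.

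**Figure D4:**
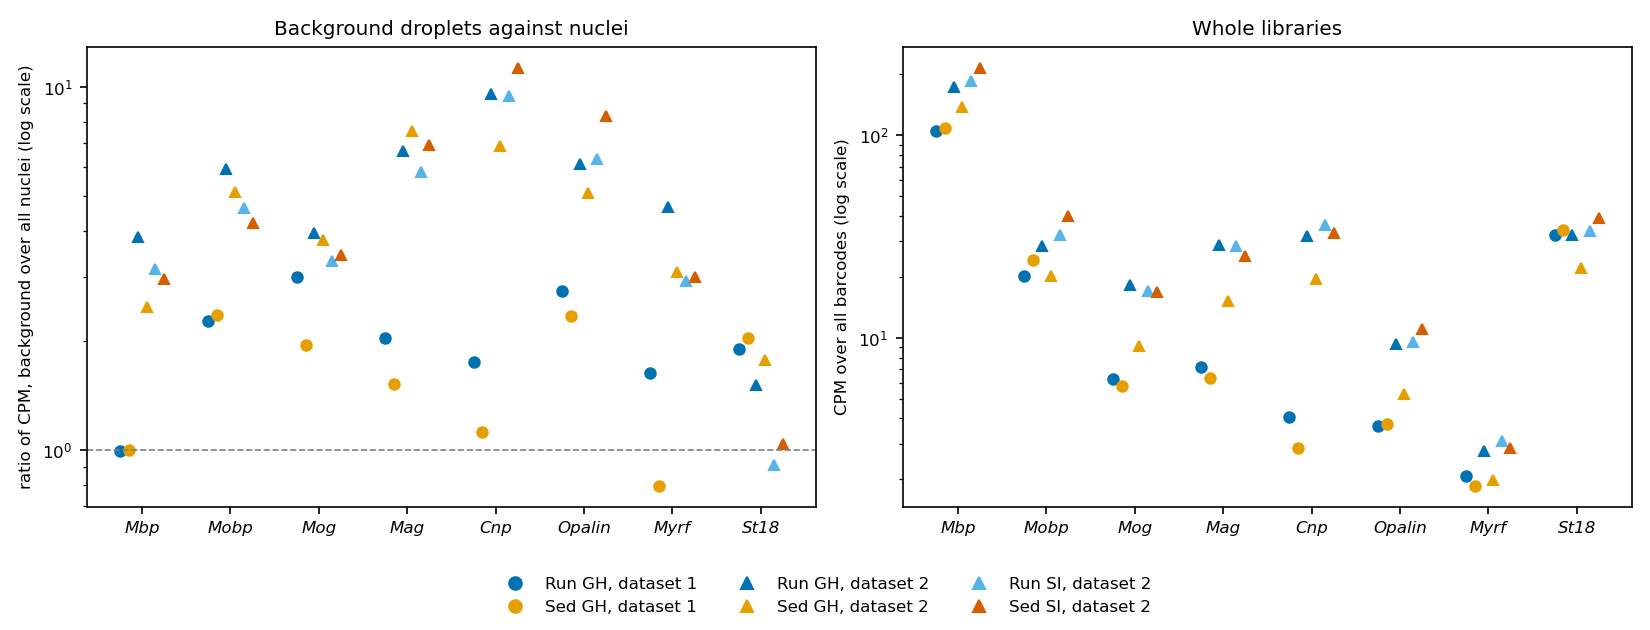
Left, ratio of CPM in background droplets to CPM in all nuclei of the same library; right, CPM over all barcodes of a library, both on log axes with 1 point per library. Triangles of dataset 2 lie above circles of dataset 1 for Mbp, Mobp, Mog, Mag, Cnp, Opalin, and Myrf on the left, and St18 is the exception.

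The maternal comparison asks whether sons of running mothers differ from males raised by sedentary mothers. In dataset 1, selection by rank may go with the mother. In oligodendrocyte nuclei the level of all 8 members was lower in Run by the fitted value, but no member passed the test. Mbp was at 2139 CPM in Run GH and 4213 CPM in Sed GH of dataset 1, at 1525 and 1870 CPM in Run GH and Sed GH of dataset 2, and at 1787 and 4171 CPM in Run SI and Sed SI. Run was lower in each of the 3 pairs, but Sed GH of dataset 2 lay below Run GH of dataset 1, so the groups overlapped. The log2 difference was -0.84 ± 0.26 (edgeR adjusted p = 0.432).

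Myrf, the regulator, was at 78.6 and 215 CPM in Run GH and Sed GH of dataset 1, at 18.5 and 16.7 CPM in those of dataset 2, and at 50.1 and 104 CPM in Run SI and Sed SI, with a log2 difference of -1.12 ± 0.37 (edgeR adjusted p = 0.465). The 2 values of dataset 2 GH rest on 6 and 1 UMIs. Mobp was at -0.83 ± 0.30, Mog at -0.68 ± 0.31, St18 at -0.66 ± 0.27, Opalin at -0.59 ± 0.30, Mag at -0.53 ± 0.29, and Cnp at -0.18 ± 0.56 (edgeR adjusted p from 0.470 to 0.943). The members' median was -0.67 against 0.019 over all genes. Of 4132 genes tested by edgeR, 0 (0%) were called, whereas 363 had an unadjusted p below 0.05, among them 5 members. DESeq2, run on all genes with at least 1 UMI, called 0 genes, and 112 had an unadjusted p below 0.05, among them 3 members.

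This result depended on single libraries. Without Run GH of dataset 2, edgeR called 191 genes and 6 members, all lower in Run, and without Sed GH of dataset 2 it called 183 genes and 5 members. The adjusted p of Mbp was then 0.000417 and 9.15e-05. The Sed libraries with the high member levels, Sed GH of dataset 1 and Sed SI, were the ones with the fewest pyramidal markers. With nuclei of at most 1 pyramidal UMI per 1000, an alternative added after seeing the data, 6 members could be tested, none was called by edgeR, and log2 differences ran from -0.59 for Mag and Mobp to -0.062 for Opalin, with -0.41 for Mbp. The part of these markers in the maternal difference was not tested beyond this. Fitted as dataset 2 minus dataset 1, the maternal difference itself ran from -0.28 ± 1.01 for Cnp to 0.96 ± 0.77 for Mog over the members. Dataset 1 has only a Run GH and a Sed GH library for this value.

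Housing, the comparison of social isolation with group housing, rests on the 2 SI libraries of dataset 2. All 8 members were higher in SI by the fitted value in oligodendrocyte nuclei, from 0.35 ± 0.66 for Cnp to 1.67 ± 0.56 for Myrf on the log2 scale, and none passed the test (edgeR adjusted p from 0.972 to 0.982). Mobp was at 469 and 1230 CPM in Run SI and Sed SI against 290 and 250 CPM in Run GH and Sed GH of dataset 2, a log2 difference of 1.34 ± 0.38. Run GH and Sed GH of dataset 1 were at 885 and 1707 CPM, so the housing groups overlapped over both datasets. Of 4132 genes tested by edgeR 0 (0%) were called, with 185 at an unadjusted p below 0.05. DESeq2 called 0 in its own set of genes, with 68 at an unadjusted p below 0.05. Without Run GH of dataset 2, edgeR called 99 genes and 4 members, all 4 higher in SI. With few pyramidal markers allowed, Mag was at -0.64 and Mog at -0.064, the opposite direction, and Mobp at 0.92.

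In whole libraries, the members did not move together with the mothers. Log2 differences between Run and Sed ran from -0.11 ± 0.16 for Mobp to 0.38 ± 0.12 for Cnp, with Mbp at -0.047 ± 0.11, and no member was called (edgeR adjusted p from 0.843 to 0.998). Mbp was at 105 and 109 CPM in Run GH and Sed GH of dataset 1, at 174 and 138 CPM in those of dataset 2, and at 185 and 216 CPM in Run SI and Sed SI, so Run was lower in 2 of 3 pairs. For housing, log2 differences ran from 0.33 ± 0.20 for Myrf to 0.56 ± 0.20 for Mobp, all 8 higher in SI, with edgeR adjusted p = 1.00 for each. Of 20531 genes, edgeR called 0 (0%) in either comparison, with 914 and 264 at an unadjusted p below 0.05. DESeq2 called 12 and 0 in its own set of genes, none of them a member. Without Run GH or Sed GH of dataset 1, edgeR called 1829 or 1845 genes for the mothers, and 0 members. The maternal difference itself differed between datasets for 7.91% of 21340 genes (1.57% higher and 6.34% lower in dataset 2), and for no member.

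The further pathway genes were likewise not called by edgeR for either environment, in oligodendrocyte nuclei or in whole libraries, with 0 of 13, 7, 5, and 5 genes tested in the 4 lists for the former and 0 of 18, 12, 12, and 16 for the latter. In oligodendrocyte nuclei, Nfasc was at -0.79 ± 0.27 for Run against Sed, the lipid genes Aspa and Fa2h at -0.78 ± 0.28 and -0.55 ± 0.28, the transcription factors Zeb2 and Zfp536 at -0.16 ± 0.25 and -0.56 ± 0.28, and Bcas1 and Tnr at -0.86 ± 0.32 and 0.37 ± 0.32. For SI against GH the same genes ran from -0.67 ± 0.39 for Tnr to 0.90 ± 0.40 for Bcas1.

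**Figure D5:**
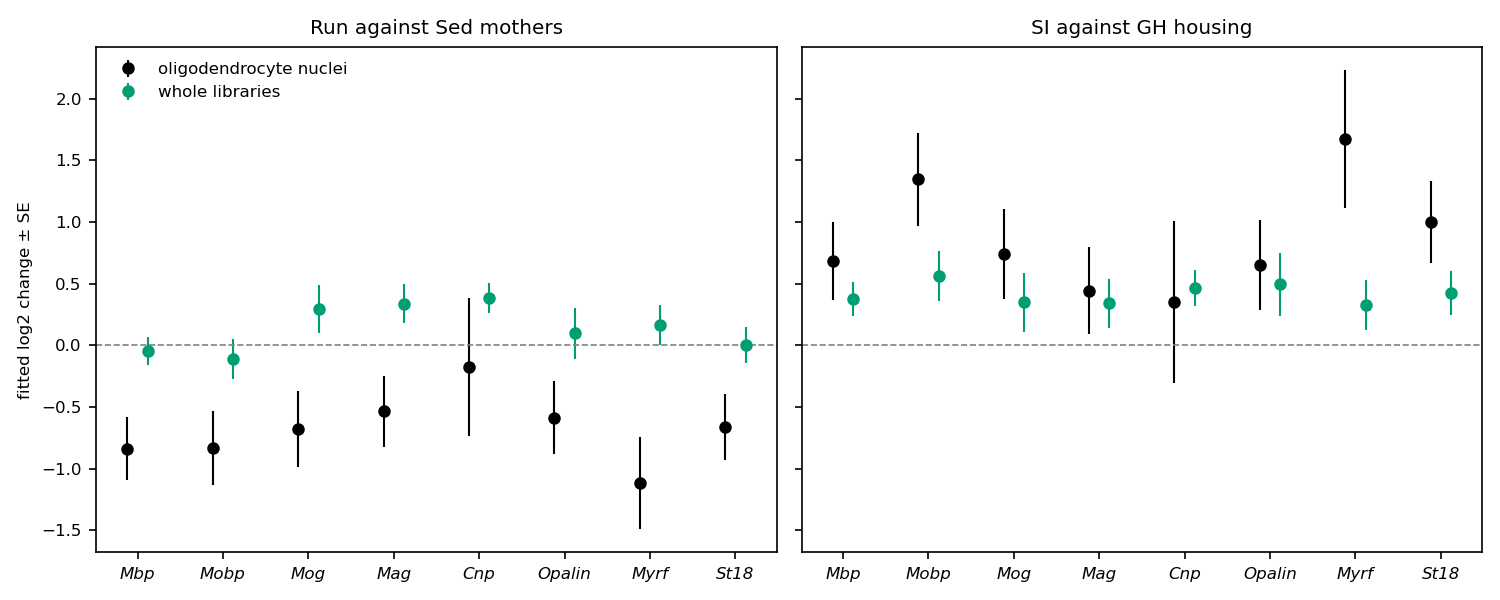
Fitted log2 change with its SE for each gene, left for Run against Sed mothers and right for SI against GH housing, in oligodendrocyte nuclei (black) and in whole libraries (green). In oligodendrocyte nuclei the 8 members lie below 0 on the left and above 0 on the right, none passing the test, and in whole libraries the values on the left scatter from -0.11 to 0.38.

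The 10 genes most like the members were ranked by Pearson r with their mean log2(CPM + 1) over 45 sums of 1 class in 1 library, covering 8 classes, among 16637 genes. Among them were Cldn11 (0.915), Rnf220 (0.897), Adamts4 (0.896), Prima1 (0.886), Cldn14 (0.876), Mapt (0.870), Arhgap23 (0.867), Lpar1 (0.866), and 5031439G07Rik (0.855). Cldn11 encodes a tight junction protein of myelin and served as an oligodendrocyte marker in the sorting of nuclei. Among the members, r ran from 0.312 for Cnp with Opalin to 0.919 for Mbp with Mag over the same 45 sums, which share libraries, classes, and depth.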

How the data were processed

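The deposited values are raw UMI counts per gene and barcode, which the authors made from 10x Chromium 3′ V3 libraries with Cell Ranger 6.0.0 (per the labels) on mm10, with introns per the methods of the study. The file headers name an earlier Cell Ranger, and which version made the counts is not settled. The labels name total RNA extraction and the methods of the study nuclei isolation. All barcodes were used as deposited. Nuclei had 500 to 4000 genes, at most 1% mitochondrial UMIs, and at least the UMIs given by the 99th percentile of the largest barcodes in a library divided by 10. Background droplets had 30 UMIs up to that minimum divided by 2. Each dataset was clustered with scanpy 1.11.5 (Pearson residuals of 3000 genes, 35 components, 20 neighbours, Leiden resolution 0.6) with the 8 genes left out, and clusters were named from marker lists, needing 3 raised markers, no more markers of any other class than of its own among the 10 leading genes, and no more raised markers of a second class. Clusters with a median depth below that of their library divided by 3 and no own marker among those 10 stayed unnamed. The condition on raised markers of a second class and the second clustering of mixed clusters were chosen after seeing the data. Clusters that scored best as precursors were also clustered again. Those then named precursor were called Enpp6-led if Enpp6 but not Pdgfra was among their 10 leading genes. Barcodes marked as doublets by Scrublet at an expected 6% (1.09 to 6.75% per library) were kept.

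UMIs were summed per library and tested with edgeR 4.0.16 (TMM, filterByExpr, quasi-likelihood, Benjamini-Hochberg over all genes tested, threshold 0.05), with terms for dataset, mother, and housing and 2 residual degrees of freedom. Background was compared with nuclei with the library as a block. DESeq2 1.42.0 was the other tool, run on all genes with at least 1 UMI in the sums. P-values measure the spread between libraries around these fits. No condition has 2 libraries within a dataset. The fit for mother and housing takes their differences to add up and to be alike in both datasets. Departures from this, such as a maternal difference that changes with housing, count as spread. Fits with 1 library left out, and those of the maternal difference between datasets, had fewer residual degrees of freedom. The dataset term follows the cohort in the labels, and the group-housed libraries of a cohort deviated together (r = 0.843 over 18373 genes). The tests were checked on simulated data. Named genes are the 8 members in each comparison, pathway genes past the threshold as counts with examples or otherwise the 2 with most counts per list, markers, and the 10 genes most like the members. The members and lists were chosen with earlier results of these data known. One gene that this rule names is not reported here.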

Additional observations from a re-analysis of the deposited data

Results flagged for a closer look

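The difference between background droplets and nuclei was itself different in the datasets for all 8 genes. The test of that difference, dataset 2 minus dataset 1, was added after the values were seen, and 62.3% of genes were called in it by edgeR. The log2 difference of the contrast was 2.60 for Cnp, 1.78 for Mag, 1.48 for Mbp, 1.47 for Myrf, 1.25 for Opalin, 0.97 for Mobp, and 0.45 for Mog, all higher in dataset 2, and -0.81 for St18, lower in dataset 2 (edgeR adjusted p from 7.89e-09 for Cnp to 0.0472 for Mog). St18 is thus the member that went the other way. The datasets differ in depth and in earlier behavioral testing, and these cannot be told apart.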

How the results depend on the processing

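Counts of called genes were 0 for mothers and housing in both kinds of sum, and other settings moved them little except where a library was left out. For mothers in oligodendrocyte nuclei, no filter on low counts gave 2 calls, and leaving out 1 library gave 0 to 191 genes and 0 to 6 members. For housing in oligodendrocyte nuclei, removing doublets gave 1 call, and leaving out 1 library gave 0 to 99 genes and 0 to 4 members. In whole libraries, no filter gave 1 and DESeq2 gave 12 calls for mothers, leaving out 1 library gave 0 to 1845 genes for mothers and 0 to 4 for housing, and 0 members. For background against nuclei, no library term gave 7581 called genes against 11564, and leaving out 1 library gave 7905 to 13113 genes and 5 to 7 members. Without the block for dataset, 0 genes and 0 members were called for either environment, and the values changed sign for Myrf in oligodendrocyte nuclei (housing, -0.047) and St18 in whole libraries (mothers, -0.034). No call of a member changed under the block.

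Further values changed sign. For mothers in oligodendrocyte nuclei, Cnp was at 0.15 with DESeq2 and at -0.60 to 0.71 with 1 library left out. For housing there, Cnp was at -0.11 with no mitochondrial limit and at -0.24 to 6.57 with 1 library left out, the highest without Run GH of dataset 2, when the only GH library of that dataset had 0 Cnp UMIs, and with few pyramidal markers Mog was at -0.064 and Mag at -0.64. For mothers in whole libraries, leaving out 1 library gave -0.20 to 0.060 for Mbp, -0.35 to 0.022 for Mobp, -0.18 to 0.30 for Opalin, and -0.21 to 0.14 for St18. For housing in whole libraries it gave -0.056 to 0.87 for Mog. The ratio of St18 between oligodendrocytes and Enpp6-led nuclei became 1.47 with few pyramidal markers. The cause of these changes was not tested. With doublets removed, dataset 2 had no Enpp6-led cluster of its own, so stage values under that setting were not obtained. Depth limits Cnp, Myrf, and Opalin most, with 59, 79, and 202 UMIs in 364 oligodendrocyte nuclei.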
